A study of Arabidopsis thaliana with 7 samples.

Results

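The myrosinase and PYK10 complex genes are 10 Arabidopsis thaliana genes for glucosinolate-cleaving enzymes, proteins that bind or steer them, and lectin or GDSL-type proteins. They were taken by identifier from the gene count table and the FPKM files: the myrosinases TGG1 and TGG2, the specifier gene ESP and its modifier ESM1, the myrosinase-binding proteins MBP1 and MBP2, the GDSL-type genes GLL22 and GLL23, the beta-glucosidase PYK10 and the jacalin gene AT1G52100. All 10 were found among the 32548 genes counted and among the 33557 genes with an FPKM value, and all 10 passed the count filter that left 29226 genes for testing. The genes were selected on their difference, or lack of one, between hon45 and WT in these same libraries, so their values are given below as a description and carry no p-value.

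RNA was sequenced from whole seedlings taken 10 days after germination (22 °C, a day of 16 h light and 8 h dark), with 2 libraries of the Col-0 wild type (WT) and 2 of the hon45 mutant. HON4 and HON5 encode chromatin proteins with a linker-histone-like domain and AT-hooks, and the series asks which genes they regulate. The labels name no allele, no number of plants per library and no single mutant, so the part of HON4 cannot be told from that of HON5. Nothing in the labels says that the 2 libraries of a genotype came from separate cultures, so the spread between them may be technical. Another 3 samples, in which chromatin of WT or of a HON5-Myc transgenic line was precipitated through the Myc tag, were not analysed here.

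Glucosinolates are sulphur-rich glucosides stored by Brassicaceae apart from their hydrolases, and they meet when tissue is crushed. TGG1 and TGG2 are kept in the vacuoles of myrosin cells and guard cells, mostly in the shoot. PYK10 is kept in ER bodies, spindle-shaped compartments of the endoplasmic reticulum that are abundant in the epidermis of roots and young seedlings, and after damage it aggregates with jacalin-type lectins and GDSL-type proteins into the PYK10 complex. What hydrolysis yields depends on specifier proteins: ESP and the nitrile specifier proteins turn the unstable aglycone towards nitriles, while ESM1 favours isothiocyanates. The Col-0 accession is known for isothiocyanates and for lacking ESP activity.

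Libraries held 53858439 to 63543079 counts. HON5 stood at 97.7 and 91.7 CPM (counts scaled to the size of the library with TMM) in WT against 14 and 15.9 CPM in hon45, and HON4, which overlaps another gene, at 99.3 and 104 CPM against 39.2 and 41 CPM. Both were lower in both libraries labelled hon45. Of 29226 tested genes 1199, or 4.1%, had an adjusted p under 0.05 in edgeR's quasi-likelihood test of hon45 against WT and are said to be called: 724 (2.48%) were higher and 475 (1.63%) lower in hon45. The median log2 fold change of all tested genes was −0.04, with 13062 above 0 and 16164 below. At an unadjusted p under 0.05 in the same test, 2852 were higher and 2385 lower. In whole seedlings, fewer cells of a type and less RNA per cell cannot be told apart.

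Of the 10 genes, 4 were called higher in hon45 (AT1G52100, TGG2, GLL23 and TGG1) and 2 were called lower (MBP1 and ESP), while PYK10, ESM1, GLL22 and MBP2 were not called. Beside this stand the shares of 2.48% higher and 1.63% lower among all tested genes. The genotypes did not overlap in 9 of the 10, with hon45 above WT in 6 and below it in 3; among all tested genes 49.3% did not overlap, 23.1% with hon45 above and 26.2% below. Since the contrast that gives these counts was known when the genes were chosen, nothing is read from either count. Their log2 fold changes ran from −1.23 to 1.81, with 7 above 0, 3 below and a median of 0.29.

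Per length of transcript, the 10 genes spanned about 3 orders of magnitude. In WT the order of mean FPKM was PYK10, TGG1, GLL22, ESM1, GLL23, TGG2, ESP, MBP1, AT1G52100 and MBP2. PYK10 stood at 2092 and 2394 FPKM and TGG1 at 203 and 294 FPKM, and these ranks were apart from each other and from the rest in both genotypes. GLL22, at 76.0 and 87.6 FPKM, could not be ordered against ESM1, at 67.7 and 92.5 FPKM. GLL23 followed at 30.9 and 35.8 FPKM. TGG2, at 8.73 and 27.5 FPKM, overlapped with ESP, at 14.6 and 15.3 FPKM, and with MBP1, at 10.7 and 11.3 FPKM. AT1G52100 stood at 4.19 and 5.72 FPKM and MBP2 lowest of the 10 at 2.68 and 2.27 FPKM. In hon45 ESM1, at 86.6 and 86.4 FPKM, stood above GLL22, at 71.2 and 65.6 FPKM. Lower in the order, AT1G52100, at 18.9 and 17.6 FPKM in hon45, stood above ESP, at 8.05 and 7.78 FPKM, and above MBP1, at 4.57 and 4.91 FPKM.

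**Figure D1:**
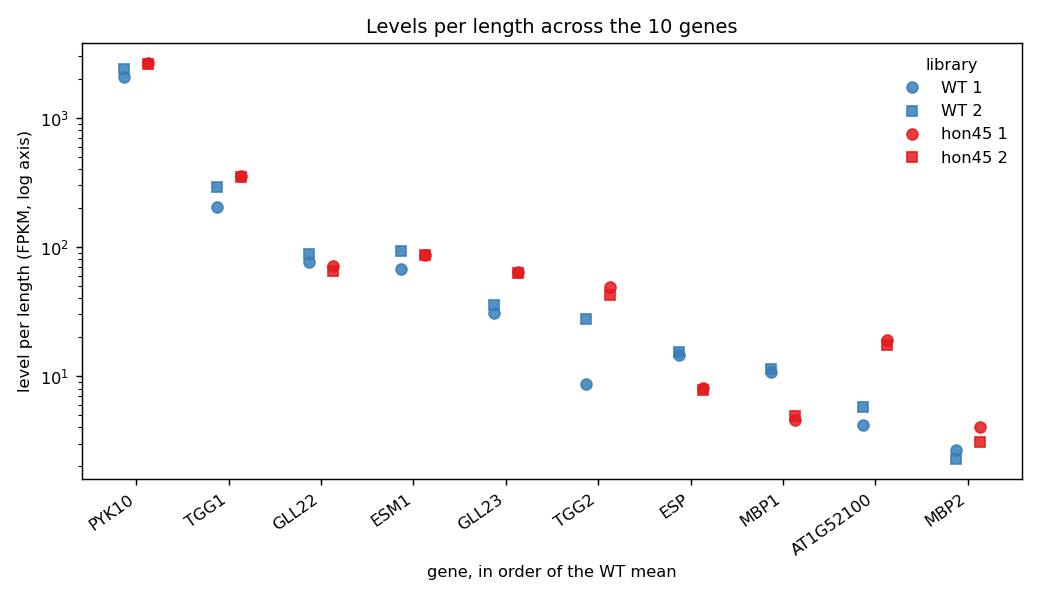
Levels per length (FPKM, log axis) of the 10 genes in each of the 4 libraries, ordered by the WT mean, with WT in blue, hon45 in red, circles for replicate 1 and squares for replicate 2. PYK10 lies highest and MBP2 lowest in every library, and AT1G52100 passes ESP and MBP1 between the genotypes.

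Both classical myrosinase genes were higher in hon45, and both differed between the WT libraries. TGG1 (AT5G26000; TAIR10 chromosome 5, 9079505 to 9082384) stood at 296 CPM in WT 1, 430 in WT 2, 516 in hon45 1 and 527 in hon45 2. Both hon45 libraries were above both WT libraries, but WT 2 lay closer to hon45 than to WT 1. WT averaged 363 ± 94.5 CPM and hon45 522 ± 7.96 CPM (SD, n = 2 each), a log2 fold change of 0.52 (SE 0.14), or 1.44-fold.

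TGG2 (AT5G25980; chromosome 5, 9072727 to 9075690), whose protein overlaps with TGG1 in function, stood at 13, 40.3, 70.1 and 63.0 CPM in the same order of libraries. WT 1 held the lowest value by far, and the groups did not overlap. The log2 fold change was 1.31 (SE 0.27), from 26.6 ± 19.3 to 66.6 ± 5.01 CPM (SD, n = 2). Without WT replicate 1 the log2 fold changes were 0.28 for TGG1, which was then not called, and 0.72 for TGG2, and without WT replicate 2 they were 0.82 and 2.36. TGG1 was also not called without hon45 replicate 1 (0.57) or hon45 replicate 2 (0.51), and DESeq2 called neither gene.

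The mix of the myrosinase pair differed too. TGG2 took 4.19% of the counts of both genes in WT 1 (95% Wilson interval 3.90 to 4.51%), 8.57% in WT 2 (8.26 to 8.89%), 12% in hon45 1 (11.6 to 12.3%) and 10.7% in hon45 2 (10.3 to 11%). This share is free of library scaling, and it was again lowest in WT 1 and higher in both hon45 libraries than in either WT library. The intervals cover counting error only, and the gap between the WT libraries exceeded them.

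Of the 5 other myrosinase genes listed 0 were called in edgeR's test. At an unadjusted p under 0.05 in that test 1 was higher, beside 2852 of all 29226 tested genes. PEN2, the atypical myrosinase of defence against fungi, stood at 95 and 107 CPM in WT against 114 and 123 CPM in hon45, and its log2 difference was 0.23 (SE 0.10). The root myrosinase genes TGG5 and TGG4 had log2 differences of 0.12 (SE 0.10) and 0.19 (SE 0.11).

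PYK10 (AT3G09260; chromosome 3, 2839000 to 2843781, a span that takes in an overlapping gene) stood at 3059, 3485, 3838 and 3918 CPM in WT 1, WT 2, hon45 1 and hon45 2. The groups did not overlap, the WT libraries differed more than the hon45 libraries, and the gene was not called. Its log2 difference was 0.25 (SE 0.19), from 3272 ± 302 to 3878 ± 56.9 CPM (SD, n = 2). Whether reads were shared between PYK10 and AT3G09250, which it overlaps, is not given in the sources used here. Among the 7 PYK10-related beta-glucosidase genes 1 was called, beside 4.1% of all tested genes. This was BGLU18, of leaf ER bodies and of abscisic acid release from its glucose ester. It rose from 30.4 and 40.2 CPM in WT to 56.8 and 55.0 CPM in hon45. The rise was 0.66 on the log2 scale (SE 0.12), with an adjusted p of 0.00314 in edgeR's test. Without hon45 replicate 2 it was 0.68 and not called (edgeR adjusted p = 0.0736), nor was it called on the log2(FPKM + 1) scale (limma-trend adjusted p = 0.0901). The closest relatives BGLU21 and BGLU22, named here for their kinship and outside the naming rule, had log2 differences of 0.01 and 0.16, and reads that such close copies share may have been split among them.

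The listed ER body genes were not called. Of the 5 listed 0 passed, all 5 lay above 0 and the median log2 fold change was 0.19. Of all 29226 tested genes 13062 lay above 0, with a median of −0.04. NAI1, the transcription factor required for ER bodies, stood at 24.4 and 28.7 CPM in WT and 28.8 and 30.9 CPM in hon45. NAI2, a structural protein of ER bodies, had a log2 difference of 0.19 (SE 0.10). The membrane protein gene MEB1, which overlaps another gene, had one of 0.36 (SE 0.11). MEB1 alone of the 5 was higher at an unadjusted p under 0.05 in edgeR's test, beside 2852 of all tested genes.

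**Figure D2:**
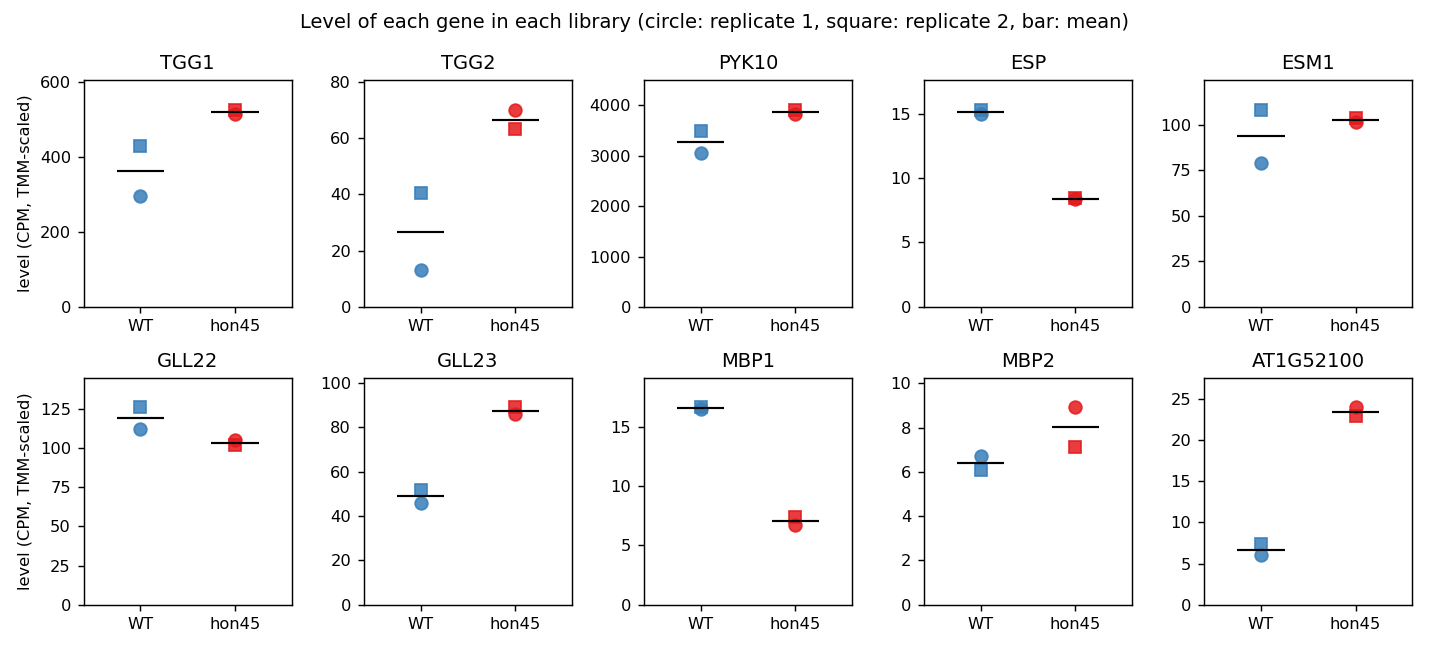
Level (CPM, linear axes from 0) of each of the 10 genes in each library, with WT in blue, hon45 in red, circles for replicate 1, squares for replicate 2 and a bar at the mean. The WT points of TGG1, TGG2 and ESM1 lie far apart, while those of ESP and MBP1 nearly coincide and lie above both hon45 points.

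ESP was lower in hon45, with little spread in either genotype. ESP (AT1G54040; chromosome 1, 20170715 to 20173949) stood at 15 and 15.3 CPM in WT against 8.34 and 8.45 CPM in hon45. The libraries of each genotype nearly coincided and the groups were far apart. The log2 fold change was −0.85 (SE 0.12), a level 1.80-fold lower in hon45, and it ran from −0.87 to −0.81 when any 1 library was left out. On FPKM the values were 14.6 and 15.3 against 8.05 and 7.78.

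ESM1 (AT3G14210; chromosome 3, 4729823 to 4731803) was not called. It stood at 78.8, 108, 101 and 104 CPM in WT 1, WT 2, hon45 1 and hon45 2. WT 1 was the low library, and WT 2 lay above both hon45 libraries, so the groups overlapped. The log2 difference was 0.13 (SE 0.12), −0.076 without WT replicate 1 and 0.38, then called, without WT replicate 2.

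The other specifier genes and the nitrilases, which hydrolyse nitriles, were not called. By counts all 9 log2 differences were below 0, from −0.35 to −0.12 with a median of −0.22, which was −0.087 without WT replicate 1. Of all 29226 tested genes 16164 lay below 0. In edgeR's test 0 of 9 were called and 4 were lower at an unadjusted p under 0.05, beside 2385 of all tested genes. By FPKM 2 of the 9 went the other way: NSP4, one of those 4, stood at 11.7 and 12.3 FPKM in WT and 14.6 and 13.6 FPKM in hon45, and NSP2 lay below 1 FPKM with overlapping groups. The counts and FPKM of NSP4 together imply a length of 21360 bases, so its direction is uncertain. Those of NIT2, NSP1 and NSP3 imply 7654, 3472 and 2948 bases, each also longer than the locus. For the rest of the 9 the implied length was shorter than the locus. How reads that match several of these genes were counted is not given in the sources used here, so their count differences may not be separate. NSP5, at 3171 and 2558 CPM in WT and 2299 and 2613 CPM in hon45, was the most abundant specifier gene, and its groups overlapped. NIT1 also overlapped, with a log2 difference of −0.19 (SE 0.17). NSP1 did not, at 684 and 725 CPM against 542 and 560 CPM, or −0.35 on the log2 scale (SE 0.12). It was not called (edgeR adjusted p = 0.112), while DESeq2, limma-voom, the stricter count filter and 1 of the 2 length-trend fits called it lower.

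The 2 myrosinase-binding protein genes, which lie side by side and encode proteins with repeated jacalin domains, had unlike values: MBP1 was lower in hon45 and MBP2 was not called. MBP1 (AT1G52040; chromosome 1, 19350375 to 19352782) stood at 16.5 and 16.6 CPM in WT against 6.72 and 7.36 CPM in hon45. Neither genotype showed a gap between its libraries that came near the difference between genotypes. The log2 fold change was −1.23 (SE 0.13), a level 2.35-fold lower, and it stayed between −1.30 and −1.13 when any 1 library was left out.

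MBP2 (AT1G52030; chromosome 1, 19345940 to 19349088) stood at 6.71 and 6.06 CPM in WT and at 8.90 and 7.14 CPM in hon45. The groups did not overlap but lay close, and the gene was not called (log2 difference 0.33, SE 0.16). MBP1 accordingly took 71.1% and 73.3% of the counts of the pair in WT and 43.0% and 50.8% in hon45. The Wilson intervals were 68.5 to 73.5% and 70.9 to 75.5% in WT and 39.9 to 46.2% and 47.4 to 54.2% in hon45. They cover counting error only, and the gap between the hon45 libraries exceeded it. Per length, by FPKM, the shares were 80.0% and 83.3% against 53.0% and 61.2%. How reads that match both copies were counted is not given in the sources used here.

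AT1G52100, a jacalin-type lectin gene of the same cluster, had the largest fold change of the 10 with all libraries in the fit, though TGG2 had a larger one without WT replicate 2 (2.36 against 1.97 on the log2 scale). AT1G52100 (chromosome 1, 19383122 to 19385602) stood at 6.0 and 7.32 CPM in WT and at 23.9 and 22.9 CPM in hon45. Every hon45 value was more than 3 times every WT value. The log2 fold change was 1.81 (SE 0.13), or 3.51-fold, with 1.68 to 1.97 when any 1 library was left out and 1.70 on the log2(FPKM + 1) scale, which understates the change of low genes.

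The other jacalin genes were not called. Of 15 listed, 0 were called, 9 lay above 0, and 4 higher and 3 lower had an unadjusted p under 0.05 in edgeR's test. Of all 29226 tested genes 13062 lay above 0, and 2852 higher and 2385 lower had such a p. Named outside the naming rule, after their values were seen, are JAL23 and AT1G52000. JAL23 had a log2 difference of −0.98 (SE 0.29), and −0.32 without WT replicate 2. It was called lower with RLE size factors, the looser filter, the exact test and the replicate block, but not with limma-voom or on FPKM. AT1G52000, at 0.39 (SE 0.12), was called higher with RLE size factors and the block. PBP1, the PYK10-binding lectin that promotes the assembly of the complex, stood at 920 and 934 CPM in WT against 985 and 1041 CPM in hon45, where its log2 difference was 0.13 (SE 0.13). JAL34 and JAL35, which overlap each other, had log2 differences of −0.04 (SE 0.12) and 0.15 (SE 0.10). In the cluster that holds MBP1, MBP2 and AT1G52100, 69.2 kb long, the other 7 listed jacalin genes had log2 differences from −0.96 to 0.39 and none was called; the 3 on the far side of AT1G52100 were at means of 1.01 to 1.44 CPM, where errors are large.

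**Figure D3:**
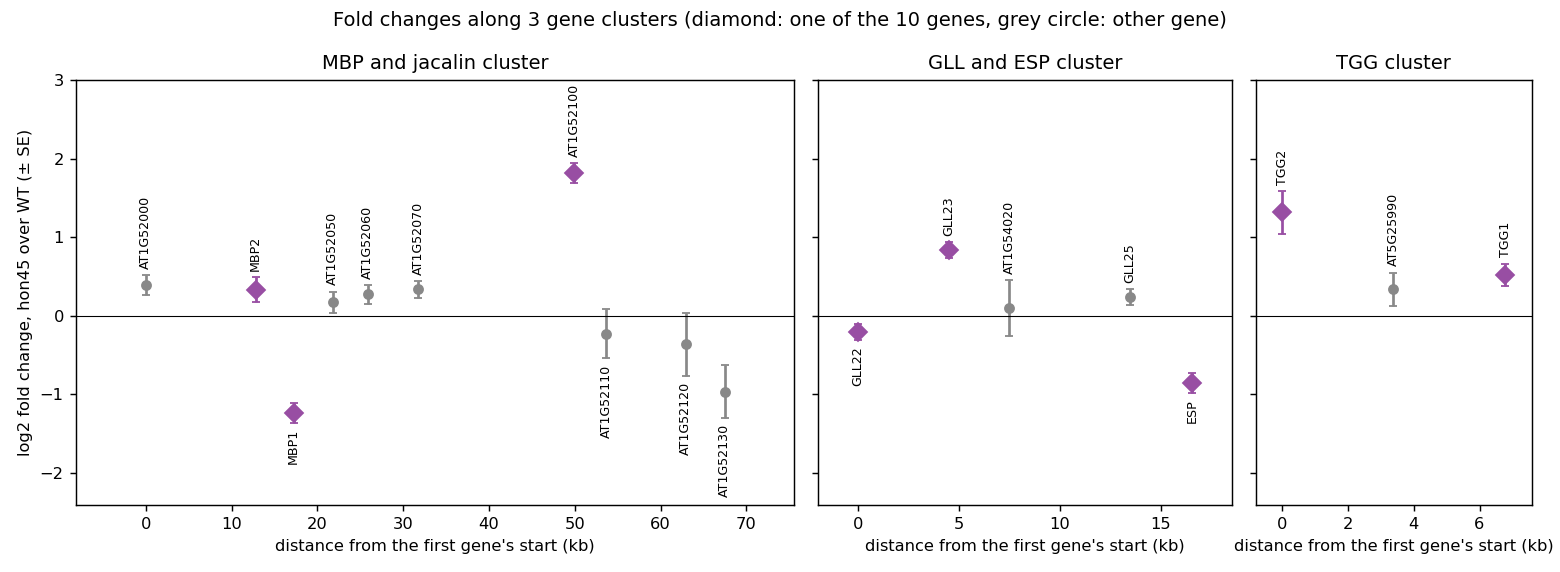
Log2 fold change of hon45 over WT (± SE) of listed genes against distance in kb from the first gene's start, in the MBP and jacalin cluster, the GLL and ESP cluster and the TGG cluster; other genes in these spans are not drawn. Purple diamonds are the 10 genes and grey circles other listed genes: MBP1 and AT1G52100 stand at −1.23 and 1.81 among neighbours nearer 0.

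GLL22 and GLL23, neighbouring genes for GDSL-type proteins of the PYK10 complex, also differed from each other. GLL23 (AT1G54010; chromosome 1, 20158664 to 20160815) stood at 46.0 and 51.7 CPM in WT and at 86.2 and 89.0 CPM in hon45. The groups were well apart. The log2 fold change was 0.84 (SE 0.10), or 1.79-fold, and 0.76 to 0.93 with any 1 library left out.

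GLL22 (AT1G54000; chromosome 1, 20154169 to 20156419) stood at 112 and 126 CPM in WT and at 105 and 102 CPM in hon45. Its groups did not overlap, with hon45 below, and it was not called (log2 difference −0.20, SE 0.10). GLL23 therefore took 29.1% and 29.2% of the counts of the pair in WT and 45.2% and 46.6% in hon45, with a Wilson interval of 28.1 to 30.1% in WT 1 against 44.2 to 46.1% and 45.6 to 47.5% in hon45. The WT libraries, which differed in the TGG2 share, gave the same GLL23 share within counting error.

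**Figure D4:**
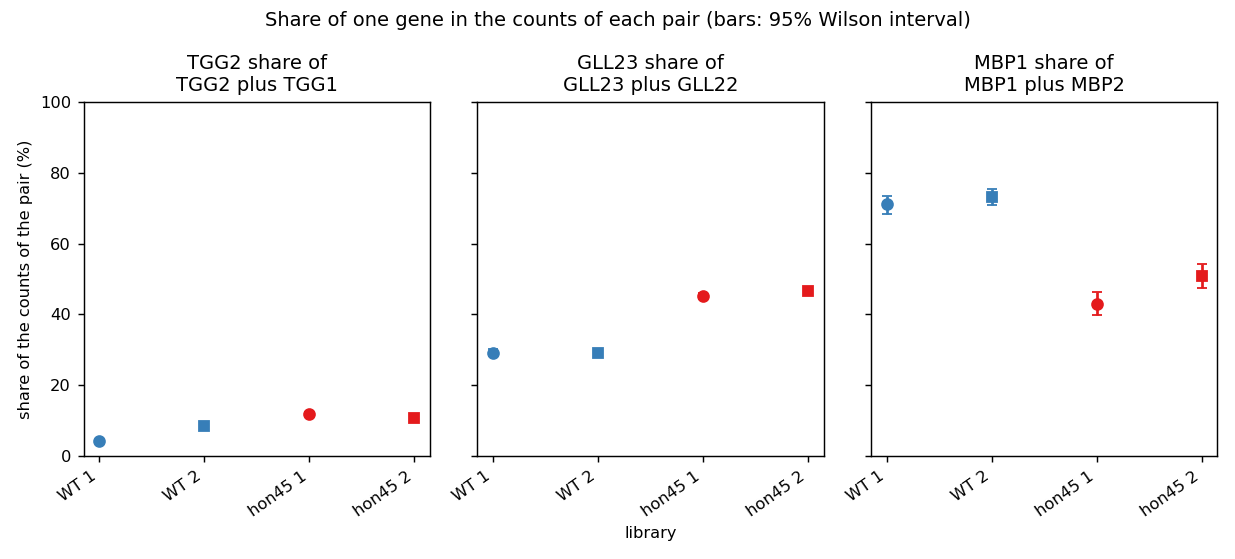
Share (%) of TGG2, GLL23 and MBP1 in the counts of TGG2 plus TGG1, GLL23 plus GLL22 and MBP1 plus MBP2 in each library, with 95% Wilson intervals, WT in blue and hon45 in red. GLL23 takes about 29% of its pair in WT and about 46% in hon45, and MBP1 lies above 70% in WT and below 51% in hon45, while the TGG2 share also differs between the WT libraries.

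GLL22, GLL23 and ESP lie in a cluster of 19.8 kb with AT1G54020 and GLL25. GLL25 (AT1G54030, also MVP1), which acts in the traffic of TGG2 and in the shape of the endoplasmic reticulum, stood at 48.1 and 53.0 CPM in WT and 59.2 and 60.2 CPM in hon45 (log2 difference 0.24, SE 0.10), and AT1G54020 was near 1 CPM in every library. Between TGG2 and TGG1 lies AT5G25990, which overlaps another gene and stood at 2.55 to 3.71 CPM over the 4 libraries. None of these 3 neighbours was called.

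In all, 6 of the 10 genes lie on chromosome 1, the chromosome of HON5, from 1.37 to 2.20 Mb past its start. Of these, AT1G52100 and GLL23 were called higher and MBP1 and ESP lower, while MBP2 and GLL22 were not called. Between HON5 and the end of ESP, 27 of 552 tested genes other than the 10 were called, 17 higher and 10 lower. BGLU18, the called gene of the pathway lists, was among the 27. MRD1 also lies in this span, 1.99 Mb past the start of HON5, and had a log2 fold change of −5.84. The share called in the span was 4.89%, against 3.93% on the rest of chromosome 1 and 4.45% on chromosomes 2 to 5. This span was chosen after the values were seen, and whether position bears on the fold changes of the 10 genes was not tested.

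Genes with a pattern like that of TGG1 were sought among 7767 other genes that averaged 20 CPM or more, by the root mean square difference of their log2 CPM, centred over the 4 libraries. The nearest were XYL1, an alpha-xylosidase gene of the cell wall (0.012 log2 units), CR88, a plastid HSP90 gene (0.018), PRPL28, a plastid ribosomal protein gene (0.021), and AT5G48790 (0.022). XYL1 stood at 120, 171, 204 and 212 CPM in WT 1, WT 2, hon45 1 and hon45 2. With only 4 libraries likeness is common: 199 genes lay within 0.1 of TGG1 and 2154 within 0.1 of PYK10. The differences were not scaled to the size of a gene's change. A gene that changes little therefore has more genes near it by this measure than a gene that changes much. Nearest to PYK10 were ISA1, an isoamylase gene (0.0015), MDH, a plastid malate dehydrogenase gene (0.0083), PDIL1-1, a protein disulfide isomerase gene (0.0087), and EMB3119 (0.0088). No gene came within 0.1 of AT1G52100, and the nearest, AT4G13495, AT5G16030, PDF2.1 and AT1G12800, lay 0.370 to 0.441 away. AT1G52100 has a large fold change and itself averaged 15.1 CPM, below the 20 CPM set for the others. The lack of near genes thus does not show that its pattern is rare.

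The WT libraries differed from each other in these genes more than the hon45 libraries did. WT 2 was above WT 1 in 9 of the 10, against 51.5% of the 15592 tested genes that averaged 5 CPM or more, and the absolute log2 ratio of the libraries had a median of 0.18 in WT and 0.04 in hon45, against 0.13 and 0.10 for those genes. TGG2 had a WT log2 ratio of 1.64 and TGG1 one of 0.54, while ESP and MBP1 had 0.03 and 0.01. The 8 leaf photosynthesis markers had a summed level of 24143 and 28934 CPM in WT and 30484 and 31522 CPM in hon45, and all 8 were higher in WT 2 than in WT 1. Of the 8, 1 was called higher, beside 2.48% of all tested genes. This was CA1, a chloroplast carbonic anhydrase gene, which rose by 0.71 on the log2 scale (SE 0.18), with an adjusted p of 0.0263 in edgeR's test. CA1 was not called without WT replicate 1 (0.41), hon45 replicate 1 (0.79) or hon45 replicate 2 (0.67), nor with DESeq2 (0.74). DESeq2 called 3 other leaf markers higher, limma-voom called 4 of the 8 and the fit with a replicate block 2, while 0 were called on the FPKM scales.

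Root markers had summed levels of 879 and 739 CPM in WT and 604 and 635 CPM in hon45. Of 12, 6 fell, which here means called lower in edgeR's test, beside 1.63% of all tested genes. In all 11 lay below 0, beside 16164 of 29226 tested genes, and 10 were lower in WT 2 than in WT 1. Their median log2 fold change was −0.43. Alternatives that kept every library called 3 to 8 of the 12 lower by counts and 0 on the FPKM scales. With WT replicate 1 left out 5 fell and 1 rose (median −0.28), and with WT replicate 2 left out 9 fell (−0.55). With hon45 replicate 1 left out 1 fell (−0.36) and with hon45 replicate 2 left out 0 did (−0.44). Guard cell markers, of a cell type that holds TGG1, were not called in either direction in the edgeR test. In that test 0 of 8 were called and 1 was lower at an unadjusted p under 0.05, beside 2385 of all tested genes. With library totals, the stricter filter, DESeq2, limma-voom, the robust method and the length trend of genes from 5 CPM, 1 was called lower. Their summed level, 372 and 343 CPM in WT and 289 and 295 CPM in hon45, came mostly from CYP86A2, whose log2 difference was −0.37 (SE 0.11). The sum therefore does not stand for the list, in which 3 of the 8 lay above 0 and 5 below. Their median log2 fold change was −0.03, against −0.04 for all tested genes. All of these markers were detected in every library. The part of the makeup of the seedlings in the values of the 10 genes was not tested.

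Listed genes of myrosin cells and glucosinolate transport lay above 0 in 7 of 7 cases, with a median log2 fold change of 0.17. Of all 29226 tested genes 13062 lay above 0. In edgeR's test 0 of the 7 were called. At an unadjusted p under 0.05 there were 3 higher, beside 2852 of all tested genes. The glucosinolate transporter genes GTR1 and GTR2 had log2 differences of 0.23 (SE 0.10) and 0.17 (SE 0.10), and SYP22, a vacuolar syntaxin gene whose loss gives more myrosin cells, 0.14 (SE 0.10); all 3 overlap other genes. Named outside the naming rule, after their values were seen, are 3 regulators of guard cell and myrosin cell fate. FAMA had a log2 difference of 0.11 (SE 0.20) and its partners SCRM and SCRM2 had 0.29 (SE 0.11) and 0.44 (SE 0.13). SCRM2 was called higher with RLE size factors, the looser filter, the exact test and the replicate block. It was not called with DESeq2, limma-voom, the stricter filter or the robust method. The WT libraries of SCRM2 stood at 14.6 and 20.1 CPM and the hon45 libraries at 21.9 and 25.3 CPM. Its log2 difference was 0.23 without WT replicate 1 and 0.69 without WT replicate 2.

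Over all 7 lists, 1 of 51 pathway genes was called higher and 0 lower, beside the shares of 2.48% and 1.63% called among all tested genes. At an unadjusted p under 0.05 in edgeR's test 12 were higher and 8 lower, beside 2852 and 2385 of all 29226 tested genes. With DESeq2 the counts were 1 and 1. The median log2 fold change of the 51 genes was 0.11, against −0.04 for all tested genes, and their values ran from −0.98 to 0.66.

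**Figure D5:**
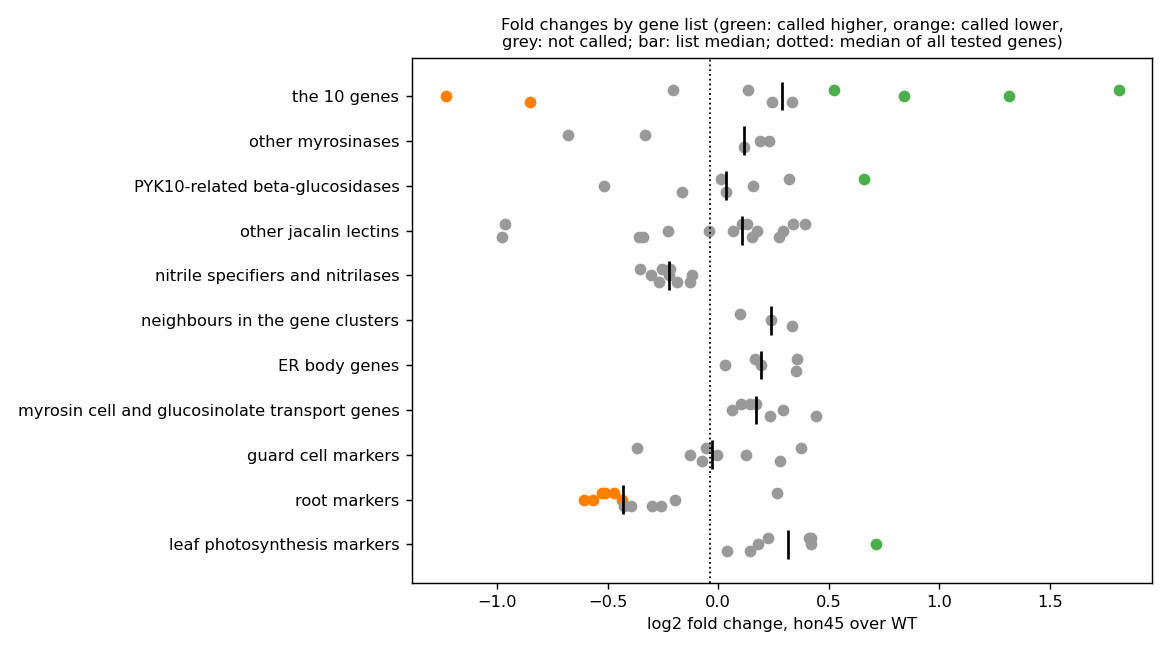
Log2 fold change of hon45 over WT for the 10 genes, 7 lists of related genes and 3 lists of cell type markers, with 1 point per gene; green points were called higher, orange points lower and grey points not, bars are list medians and the dotted line is the median of all tested genes. The 10 genes spread from −1.23 to 1.81, the nitrile specifiers and nitrilases lie below 0 by these counts (NSP4 and NSP2 do not by FPKM), and 6 root markers are orange.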

How the data were processed

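The deposited count table holds unnormalized whole-number counts for each gene, 1 column per library. The FPKM files, 1 per library, were deposited by the authors with a locus per gene, per the file headers. The submitters' processing notes name HISAT2, Bowtie2, edgeR, deepTools and TAIR10, with no roles; which program counted reads, with which annotation and strand setting, and which made the FPKM values is not given in the sources used here. If overlapping genes share reads, their counts are uncertain. Coordinates are those of the FPKM files with 1 added to the start. Gene names and overlaps came from a RefSeq table of TAIR10.1, in which all 32548 identifiers were found.

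The count test ran in edgeR 4.0.16 under R 4.3.3: filterByExpr, TMM scaling, and glmQLFit (legacy = FALSE) with glmQLFTest on genotype, with 2 residual degrees of freedom and Benjamini-Hochberg adjustment over all 29226 tested genes. Each SE divides the size of a log2 fold change by the root of its F. Pair shares have 95% Wilson intervals (scipy 1.17.1).

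The 10 genes, the 7 pathway lists and the 3 marker lists were chosen with earlier results of these data known. Named beside the 10 genes were HON4, HON5, every called gene of a pathway list or, with none, its 3 most abundant, all 3 cluster neighbours, and the 4 genes nearest in pattern to TGG1, PYK10 and AT1G52100. Alternatives were RLE size factors, library totals, 2 other count filters (1 count or 5 CPM in 2 libraries), DESeq2 1.42.0, the exact test, limma-voom (limma 3.58.1), a replicate block, each library left out, an adjusted p under 0.01, 2 gene-length offsets and limma-trend on log2(FPKM + 1) or log2(FPKM + 0.1). Chosen after the data were seen were edgeR's older and robust quasi-likelihood methods. In the FPKM fits 3 genes with a failed status were left out. Sequences were not analysed here.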

Additional observations from a re-analysis of the deposited data

How the results depend on the processing

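The calls of ESP and MBP1 as lower and of GLL23 and AT1G52100 as higher held under 18 of 19 alternatives each, and were lost with log2(FPKM + 1) and no filter, where limma-trend called 0 of 33554 genes (4477 at an unadjusted p under 0.05), hence 0 of the 10 genes higher and 0 lower. TGG1 was called under 7 of 19 alternatives and TGG2 under 13. The genes called higher among the 10 numbered 2, GLL23 and AT1G52100, with the stricter filter, DESeq2, the robust method, log2(FPKM + 1) and log2(FPKM + 0.1), and 3 to 5 with 1 library left out, 2 being lower in each case. ESM1 ran from −0.076 (without WT replicate 1) to 0.38 on the log2 scale with 1 library left out.

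Over all genes, those called higher were 348 with the stricter filter, 1119 with a replicate block, 175 at an adjusted p under 0.01, 441 with the length trend of genes from 5 CPM, 40 and 36 with log2(FPKM + 1) and log2(FPKM + 0.1), and 37 to 2229 with 1 library left out. Those called lower were 150 at an adjusted p under 0.01, 241 with the length trend of genes from 1 CPM, 81 and 74 on the same FPKM scales, and 82 to 1607 with 1 library left out. Of the 51 pathway genes, those called higher were 3 with RLE size factors, 3 with a replicate block, 2 with the looser filter, 2 with the exact test, 0 in the 3 FPKM fits and 0 to 10 with 1 library left out. Those called lower were 1 each with RLE size factors, the looser and stricter filters, DESeq2, the exact test, limma-voom and the block, 4 with the length trend of genes from 5 CPM, and 0 to 2 with 1 library left out. The causes were not tested.

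The labels number the replicates but do not say whether the numbers pair the libraries. Deviations of WT 1 and hon45 1 from their genotype means correlated at 0.062 over 15592 genes. A single correlation over genes cannot decide this, since pairing could touch only some genes. With a replicate block 4 of the 10 genes were called higher and 2 lower, as without it. Over all genes the block gave 1119 called higher and 648 lower, against 724 and 475 without it. A library left out leaves its genotype with 1 library, assumed to vary like the other genotype. Genes near 1 CPM, such as 3 jacalin genes, are limited by depth.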
